A study of Homo sapiens with 12 samples.

Results

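The 44 genes described here encode the machinery of intraflagellar transport and the BBSome, and they were taken by symbol from a table of 60564 genes. They comprised 6 genes of IFT-A, 11 of the IFT-B1 core, 6 of peripheral IFT-B2, 4 for ciliary kinesins, 4 for dynein-2, 8 for the BBSome, 3 chaperonin-like BBS genes and 2 for BBSome recruitment and regulation. The RNA came from a pair of established human lines of pancreatic ductal adenocarcinoma, CFPAC-1 and BxPC-3. The groups were CFPAC-1 control, CFPAC-1 induced, BxPC-3 control and BxPC-3 induced, with 3 libraries each. Control cells were in normal culture, and induced cells were kept without serum for 48 h to grow primary cilia. No genetic change was introduced in any group. The series' text put the share of cells with a cilium at 7% in CFPAC-1 control and 39% after starvation, and at 5% in BxPC-3 control and 78% after starvation. Most cells of CFPAC-1 induced therefore had no cilium by that count, and bulk RNA does not separate ciliated from other cells. In such samples fewer cells of a kind and less RNA per cell cannot be told apart. The labels do not say whether the libraries of a group were separate cultures, and the spread that the p-values measure may be technical.

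A primary cilium is built and kept by trains of protein particles that travel along its microtubules. IFT-B particles, pulled by kinesin-2, carry cargo from the base to the tip, and IFT-A particles with dynein-2 support the return to the base. The BBSome, a coat-like complex recruited to membranes by the GTPase ARL6, is known for carrying receptors out of the cilium, and its assembly needs the chaperonin-like proteins MKKS, BBS10 and BBS12. RFX transcription factors bind a sequence called the X-box in the promoters of many cilia genes. Defects in these genes cause Bardet-Biedl syndrome and other ciliopathies.

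The X-box is shown first, since it is the best known promoter feature of this gene family and the rule that chose the genes did not use it. RefSeq promoters of 300 bases on GRCh38.p14, from 250 bases before to 50 after the gene start, were matched for 41 of the 44 genes by current or older symbol. The core sequence GTTGCCA, on either strand, stood in 10 of these 41 promoters, which is 24.39%, and in 4.08% of the 35116 promoters of the whole table. The X-box, searched as GTTNCC followed by GGNAAC with 0 to 3 bases between them, reads the same on both strands and can contain the core sequence. It stood in 3 of 41 promoters, which is 7.32%, and in 0.74% of all promoters. The 3 genes with an X-box were IFT122, TTC30A and ARL6, and the window of TTC30B is given because it is a paralog of TTC30A. The windows lie at chr3:129440204-129440233 on the plus strand for IFT122, chr3:97764726-97764755 on the plus strand for ARL6, chr2:177618719-177618748 on the minus strand for TTC30A and chr2:177552785-177552814 on the minus strand for TTC30B. The first 3 show the X-box in capitals and the TTC30B window shows the core sequence in capitals, each written 5′ to 3′ on the gene's strand.
IFT122: gcatgtacGTTGCCAGGGGTAACgcaggta
ARL6: aagctcctGTTGCCAAGGGAACggtgcctg
TTC30A: gttgccctGTTGCCGTGGTAACcgcacgca
TTC30B: tccggttgctctGTTGCCAtagtaaccgca
The core sequence was also found in the promoters of IFT46, which differed most between CFPAC-1 control 1 and CFPAC-1 control 2 and 3, and of DYNC2H1, the gene of lowest level. Their windows lie at chr11:118566110-118566139 on the minus strand for IFT46 and chr11:103109428-103109457 on the plus strand for DYNC2H1, again with the match in capitals.
IFT46: tttatcagccgcGTTGCCAcccatagccgc
DYNC2H1: agcgactaccccTGGCAACcgcgaagctct
A match is a description of these letters, and binding was not measured. The other genes with the core sequence were IFT81, IFT88, CLUAP1, DYNC2LI1 and BBS1.

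The libraries differed in ways that touch every CFPAC-1 result. Those labelled CFPAC-1 control 2 and 3 had correlations with the other 4 libraries of their line of 0.791 to 0.814 across tested genes and of 0.990 with each other, while the other 4 correlated with one another at 0.919 to 0.988. KRT19, a keratin of duct epithelium, was at 7.42 and 7.67 FPKM in these 2 libraries and at 254 to 627 FPKM in the other 4. Tests that involve CFPAC-1 control are therefore given with and without them. The duct epithelium markers summed to 443 to 1080 FPKM in CFPAC-1 and 1390 to 1800 in BxPC-3, but CDH1, which encodes E-cadherin, was below 1 FPKM in all 6 CFPAC-1 libraries and KRT7 was at 0.34 to 2.01. Acinar, endothelial and endocrine lists stayed at or under 2.89, 0.621 and 0.0308 FPKM in sum. The fibroblast list summed to 6.31 to 37.3 FPKM in CFPAC-1 control, 26 to 110 in CFPAC-1 induced and 1.09 to 1.74 in BxPC-3. Nearly all of the highest sums came from LUM, but LUM was at 0.0532 and 0 FPKM in CFPAC-1 control 2 and 3. There COL1A1 (4.27 and 4.28 FPKM) and COL3A1 (1.98 and 2.06 FPKM) made up most of the sum. COL1A1 was at 0.708 to 1.45 FPKM in BxPC-3. COL1A2, PDGFRB and DCN were below 1 FPKM everywhere. The immune list summed to 4.91 to 48.1 FPKM, nearly all of it from CD68 and CD14, with PTPRC at or near 0. Of the markers of multiciliated epithelium, which has motile cilia, SPAG6 was listed at 0 in every library and the list summed to 0.478 to 3.48 FPKM. Mitochondrially encoded genes took 11.6% to 34.0% of all FPKM. The part of these differences in the results below was not tested.

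Transcript levels spanned a wide range within the machinery. Values are FPKM, fragment counts scaled to transcript length and to library size, which allows a rough comparison between genes. Exon overlap with other genes, up to 64.5% for BBS1, and uneven coverage along transcripts were not corrected for here. WDR34, an intermediate chain of dynein-2, had the highest mean over the 4 groups at 27.3 FPKM. The kinesin-2 motor subunit KIF3B followed at 11.7 FPKM, then the IFT-B1 core proteins IFT52 at 11.0 and HSPB11 (IFT25) at 10.9 FPKM. IFT57, of peripheral IFT-B2, was the only other gene above 5 FPKM, at 5.88. The median gene stood at 1.6 FPKM, 30 of the 44 genes were under 2 FPKM and 12 were under 1 FPKM. The number of genes at 1 FPKM or more ranged from 27 to 38 per library, and it was 38 in each of CFPAC-1 control 2 and 3 and at most 35 elsewhere.

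**Figure D1:**
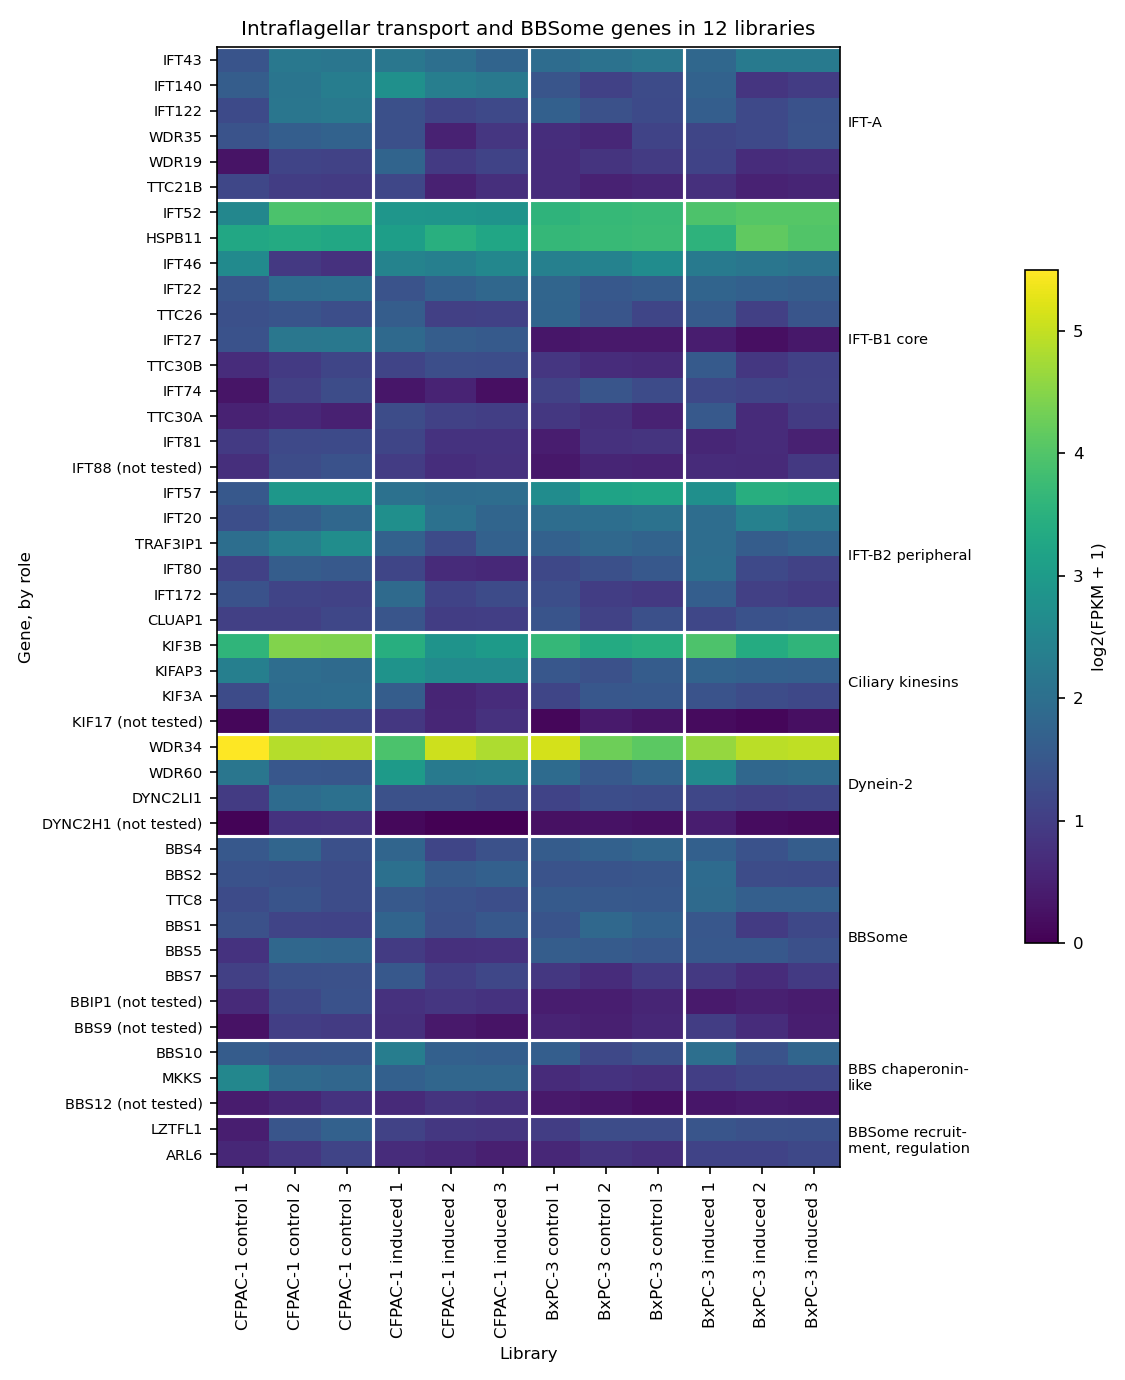
Level of each of the 44 genes in the 12 libraries as log2(FPKM + 1), with libraries in columns by group and genes in rows by role; colour runs from 0 (dark) to the highest value (yellow). WDR34 is the brightest row in every library, IFT27 is dark in all 6 BxPC-3 libraries, and CFPAC-1 control 2 and 3 differ from control 1 in IFT52, IFT57 and IFT46.

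Partners of one complex did not sit at like levels. In dynein-2 the heavy chain DYNC2H1, the motor subunit itself, had the lowest level of all 44 genes, with a mean of 0.235 FPKM. In CFPAC-1 control it was at 0.0446, 0.748 and 0.762 FPKM, in CFPAC-1 induced at 0.0802, 0.00655 and 0.0141, in BxPC-3 control at 0.193, 0.212 and 0.174 and in BxPC-3 induced at 0.349, 0.143 and 0.0952. The heavy chain was thus under 1 FPKM in every library and highest in CFPAC-1 control 2 and 3. WDR34 was at 44.0, 28.4 and 29.1 FPKM in CFPAC-1 control, 14.3, 32.5 and 27.3 in CFPAC-1 induced, 34.0, 18.5 and 16.2 in BxPC-3 control, and 23.8, 29.5 and 30.4 in BxPC-3 induced. Its groups overlapped in both lines, and the library of highest level was numbered 1 in both control groups. WDR60, the partner intermediate chain, had a mean of 3.27 FPKM, and the light intermediate chain DYNC2LI1 1.57 FPKM. In the order of mean levels many neighbours did not differ beyond their spread: of the leading genes, KIF3B (11.7), IFT52 (11.0) and HSPB11 (10.9 FPKM) overlapped in their libraries, while WDR34 was above each of them in all 12 libraries.

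For testing, genes at 1 FPKM or more in at least 3 of the 12 libraries were kept, which left 12860 genes in all and 38 of the 44. The filter admits a gene through any group in which it is high. The 6 genes left out were IFT88 (0.279 to 1.62 FPKM), an IFT-B1 core protein, the kinesin KIF17 (0.0633 to 1.27 FPKM), DYNC2H1, BBS9 (0.205 to 1.04 FPKM) and BBIP1 (0.315 to 1.61 FPKM), both of the BBSome, and BBS12 (0.162 to 0.775 FPKM). IFT88, KIF17 and BBIP1 reached 1 FPKM in CFPAC-1 control 2 and 3 and in no other library, and BBS9 in control 2 alone.

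In BxPC-3, the line with the larger rise in ciliated cells, none of the 38 tested genes passed the test between induced and control cells. The test was limma on log2(FPKM + 1) with Benjamini-Hochberg adjustment over all tested genes at 0.05, and it called 0.334% of all tested genes. At an unadjusted p under 0.05, 2 of the 38 genes passed, against 8.52% of all tested genes. The median change of the 38 genes was 0.05 on the log2 scale and that of all tested genes was 0.06, with 26 of 38 changes above 0. Standard errors ran from 0.15 for TTC8 to 0.38 for IFT46, and the largest change in either direction was 0.44.

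The 3 highest changes in BxPC-3 were those of WDR35, TTC30B and ARL6. WDR35 (IFT121), of IFT-A, was at 0.645, 0.536 and 1.14 FPKM in control and 1.21, 1.31 and 1.64 in induced cells. The induced libraries were all above the control ones, and the log2 change was 0.44 (SE 0.22, limma adjusted p = 0.642). TTC30B, a tetratricopeptide protein of the IFT-B1 core, was at 0.822, 0.631 and 0.575 FPKM in control and 1.95, 0.866 and 1.08 in induced cells. These groups did not overlap either, with a log2 change of 0.43 (SE 0.20, limma adjusted p = 0.589). ARL6, the GTPase that recruits the BBSome, was at 0.521, 0.769 and 0.682 FPKM in control and 1.16, 1.14 and 1.27 in induced cells. Its groups were apart with a log2 change of 0.40 (SE 0.17, limma adjusted p = 0.53), the smallest adjusted p of the 38 genes here.

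The 3 lowest changes in BxPC-3 were those of BBS1, IFT46 and BBS4. BBS1, a BBSome subunit, was at 1.69, 2.60 and 2.21 FPKM in control and 1.83, 0.946 and 1.28 in induced cells, and the groups overlapped through library 1. Its log2 change was -0.44 (SE 0.20, limma adjusted p = 0.572), and 64.5% of its annotated exon bases overlap other genes, among them ZDHHC24 on the opposite strand. Whether counting used strand is not given in the sources used here, so reads of these genes cannot be told apart. IFT46, an IFT-B1 core protein, was at 4.25, 4.42 and 5.35 FPKM in control and 3.74, 3.43 and 3.18 in induced cells, with every induced library lower. Its log2 change was -0.35 (SE 0.38, limma adjusted p = 0.902) in the fit that shares its spread over all groups. Without CFPAC-1 control 2 and 3 the SE was 0.15 and the adjusted p 0.381. BBS4, another BBSome subunit, had a log2 change of -0.14 (SE 0.20, limma adjusted p = 0.933) with overlapping groups.

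Counting groups without overlap in BxPC-3, 8 of the 38 genes were higher in all induced libraries than in all control libraries, against 12.4% of all tested genes. They were WDR35, TTC30B and ARL6 with IFT52, KIFAP3, TTC8, MKKS and LZTFL1. IFT46 was the only gene lower in all induced libraries, against 4.84% of all tested genes. Between libraries numbered 1 the median change of the 38 genes was 0.21 with 28 above 0, and between those numbered 2 and 3 it was 0.06 with 20 above 0. Only 17 of the 38 genes had the same sign in both. Medians over all tested genes are not given for this split. WDR34 was at -0.50 in library 1 and 0.76 in libraries 2 and 3.

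**Figure D2:**
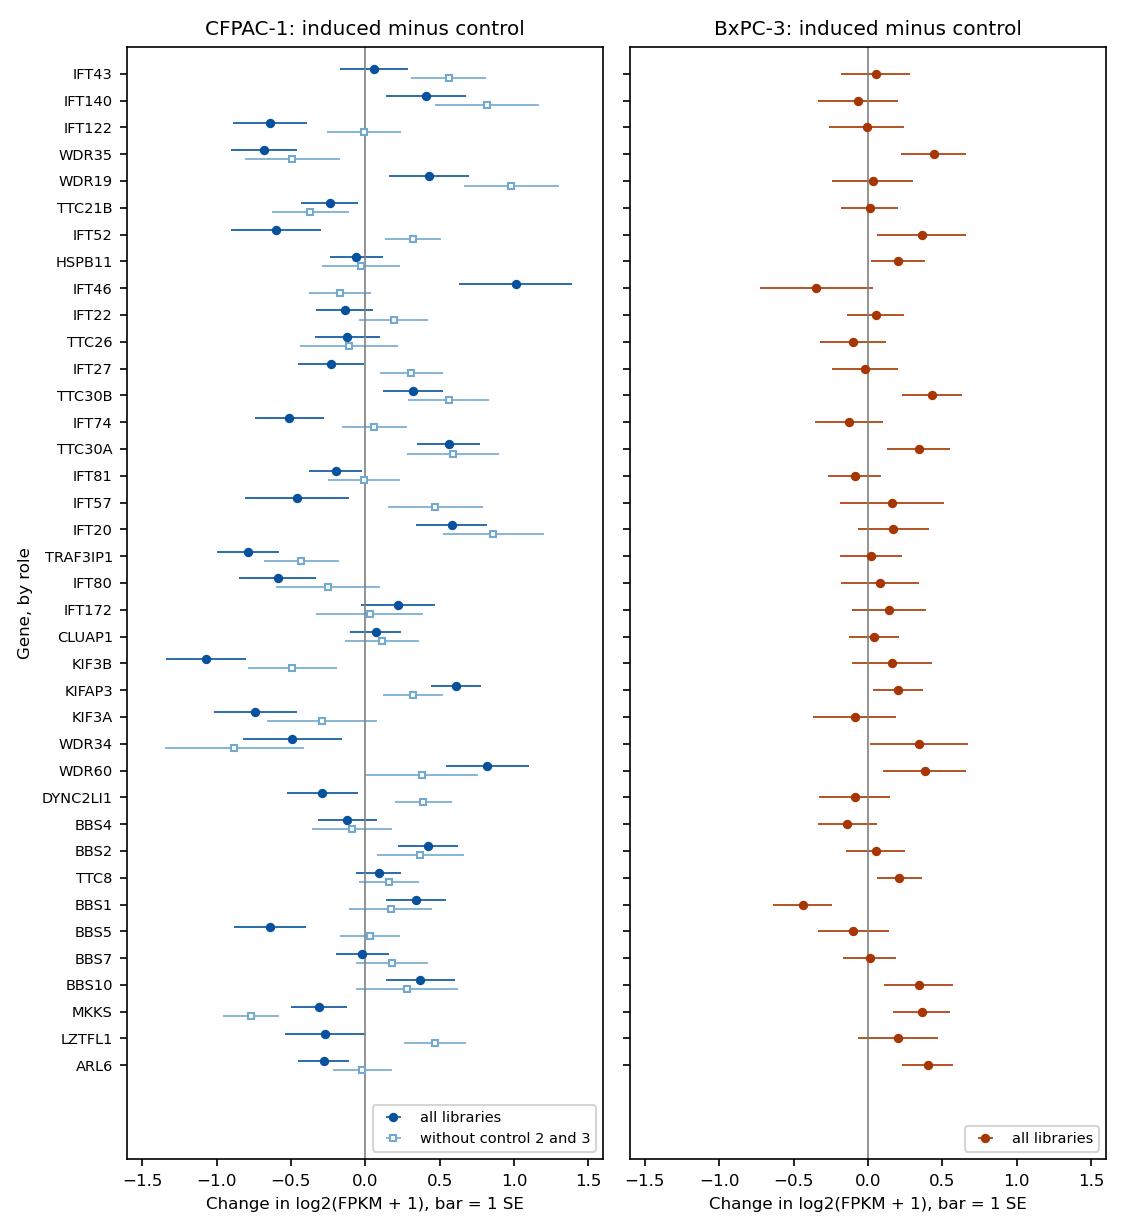
Change of each tested gene from control to induced cells in CFPAC-1 (left) and BxPC-3 (right), in log2(FPKM + 1), with bars of 1 SE; open squares leave out CFPAC-1 control 2 and 3. In CFPAC-1 many filled points shift towards or across 0 when these libraries are left out (KIF3B from -1.07 to -0.49, IFT46 from 1.01 to -0.17). Others shift away from 0 (WDR19 from 0.43 to 0.98, WDR34 from -0.49 to -0.88). BxPC-3 changes lie between -0.44 and 0.44.

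In CFPAC-1, with all libraries, KIFAP3 rose and KIF3B and TRAF3IP1 fell after starvation. That is 1 of 38 genes higher, against 7.85% of all tested genes, and 2 lower, against 8.77%. The median change of the 38 genes was -0.13 and that of all tested genes -0.09. KIF3B, the kinesin-2 motor subunit, was at 11.0, 20.8 and 20.6 FPKM in control and 9.86, 6.04 and 7.01 in induced cells. All induced libraries were below control 1 and far below controls 2 and 3, with a log2 change of -1.07 (SE 0.27, limma adjusted p = 0.024). TRAF3IP1 (IFT54), a peripheral IFT-B2 protein, was at 2.96, 4.08 and 5.46 FPKM in control and 2.26, 1.39 and 2.25 in induced cells, without overlap. It fell by 0.79 on the log2 scale (SE 0.21, limma adjusted p = 0.029). KIFAP3, the accessory subunit that joins kinesin-2 to cargo, was at 4.18, 2.91 and 2.71 FPKM in control and 6.09, 5.15 and 5.15 in induced cells. It rose by 0.61 (SE 0.17, limma adjusted p = 0.0326), again without overlap.

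Without CFPAC-1 control 2 and 3 none of these calls held. The fit then rests on control 1 as the lone control of this line, whose spread is assumed to be like that of the other groups. It called 0 of 38 genes, against 1.73% of all tested genes, with 4 of the 38 at an unadjusted p under 0.05 against 18.1% of all tested genes. KIF3B stood at -0.49 (limma adjusted p = 0.44), TRAF3IP1 at -0.43 (0.398) and KIFAP3 at 0.32 (0.46). The median of the 38 genes moved to 0.13 with 23 above 0, while that of all tested genes was -0.05. MKKS, a chaperonin-like BBS gene outside the rule for named genes and picked after its values were seen, had the smallest adjusted p, 0.0754, with a log2 change of -0.77 (SE 0.19). Without control 1 the count went the other way, to 3 higher, against 18.7% of all tested genes, and 14 lower, against 23.3%.

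The other large CFPAC-1 changes did not pass with all libraries. IFT46 was at 5.18, 0.893 and 0.714 FPKM in control and 4.48, 4.17 and 4.79 in induced cells. Control 1 lay above all induced libraries and controls 2 and 3 far below them, so the log2 change of 1.01 (SE 0.38, limma adjusted p = 0.0848) became -0.17 (adjusted p = 0.73) without controls 2 and 3. WDR60, the dynein-2 intermediate chain, was at 3.43, 1.83 and 1.76 FPKM in control and 7.00, 3.83 and 3.91 in induced cells. Its groups did not overlap, with a log2 change of 0.82 (SE 0.28, limma adjusted p = 0.066) and of 0.38 (adjusted p = 0.668) without controls 2 and 3. KIF3A, the motor subunit that pairs with KIF3B, was at 1.38, 2.76 and 2.86 FPKM in control and 2.07, 0.481 and 0.633 in induced cells, overlapping through library 1. Its log2 change was -0.74 (SE 0.28, limma adjusted p = 0.0866) and -0.29 (adjusted p = 0.757) without controls 2 and 3.

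The paralogs TTC30A and TTC30B share 10.6% and 15.8% of the 50-base stretches of their transcripts with another gene, foremost each other, and their values are uncertain to that extent. TTC30A was at 0.445, 0.555 and 0.422 FPKM in CFPAC-1 control and 1.41, 1.10 and 1.03 in CFPAC-1 induced, without overlap, with a log2 change of 0.56 (SE 0.21, limma adjusted p = 0.0857) and of 0.59 (adjusted p = 0.363) without controls 2 and 3. In BxPC-3 it was at 0.848, 0.658 and 0.431 FPKM in control and 1.88, 0.605 and 0.927 in induced cells, which overlapped, with a log2 change of 0.34 (SE 0.21, limma adjusted p = 0.736). TTC30B had a log2 change of 0.32 (SE 0.20, limma adjusted p = 0.268) in CFPAC-1 and of 0.56 (adjusted p = 0.313) without controls 2 and 3, so both copies had positive changes in both lines and none passed the test.

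How far CFPAC-1 control 2 and 3 stood from the other 4 libraries of the line can be read gene by gene. Of the 44 genes, 21 were above all 4 other libraries in both and 6 were below all 4. Among the 38 tested genes these counts were 16 and 6, against 30.9% above and 25.0% below over all tested genes. IFT52 was at 14.1 to 14.2 FPKM against 4.82 to 6.44, IFT57 at 6.52 to 6.55 against 1.87 to 3.15 and BBS5, a BBSome subunit, at 2.46 to 2.56 against 0.685 to 0.931. Of the annotated exon bases of BBS5, 21.9% overlap another gene on the same strand. LZTFL1, which regulates BBSome entry into the cilium, was at 1.72 to 2.24 FPKM against 0.381 to 1.12. The 6 below were IFT46, KIFAP3, WDR60, BBS1, BBS2 and BBS10. These libraries were singled out from the data, so the counts are given as a description, with no test. Between libraries numbered 1 in CFPAC-1 the median change of the 38 tested genes was 0.36 with 29 above 0, and between those numbered 2 and 3 it was -0.28 with 13 above 0. The sign was the same in 15 of 38. Medians over all tested genes are not given for these splits, so the shift cannot be assigned to these genes. In number 1, mitochondrially encoded genes took 34.0% of FPKM in control and 11.6% in induced cells, and their part in the difference was not tested.

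**Figure D3:**
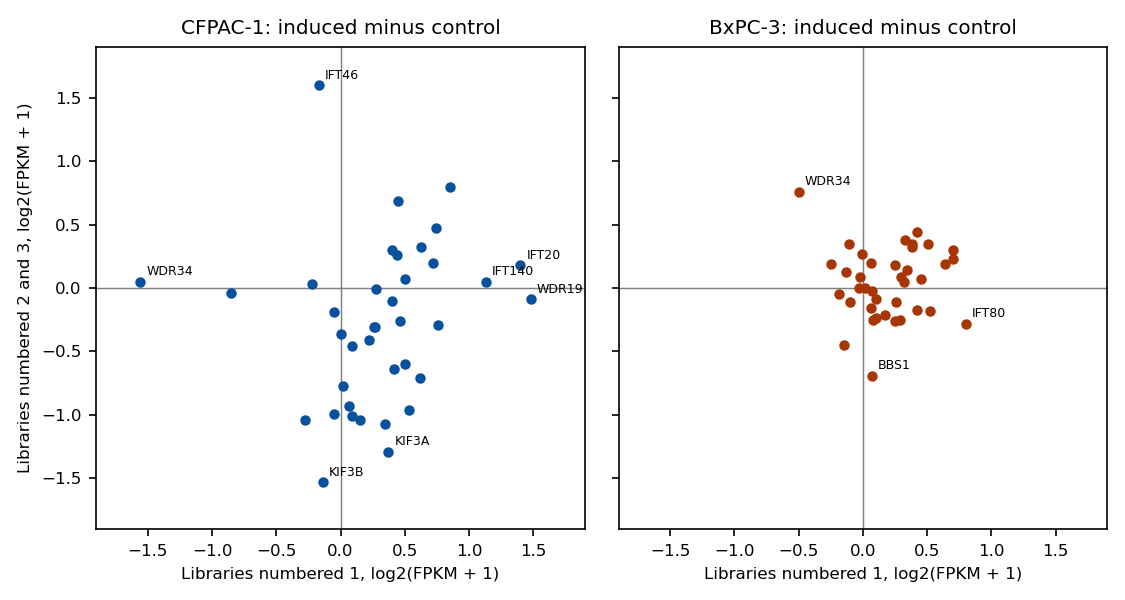
Change from control to induced cells in libraries numbered 1 (horizontal) and in libraries numbered 2 and 3 (vertical), in log2(FPKM + 1), 1 point for each of the 38 tested genes, for CFPAC-1 (left) and BxPC-3 (right). CFPAC-1 points spread widely along both axes, with IFT46 at 1.6 and KIF3B at -1.53 in numbers 2 and 3 against -0.17 and -0.14 in number 1, and BxPC-3 points lie closer to 0.

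The change differed between the lines for none of the 38 genes, against 2.45% of all tested genes. At an unadjusted p under 0.05, 8 of 38 genes passed, against 24.3% of all tested genes. The median difference of changes, BxPC-3 minus CFPAC-1, was 0.16 for the 38 genes and 0.16 for all tested genes. The smallest adjusted p was that of WDR35, with a difference of 1.12 (SE 0.32, limma adjusted p = 0.0802). WDR35 was at 1.64, 2.12 and 2.33 FPKM in CFPAC-1 control and 1.54, 0.446 and 0.823 in CFPAC-1 induced, lower in every induced library, and higher in every induced library of BxPC-3. Without CFPAC-1 control 2 and 3, control 1 was the lone control of this line, so only effect sizes are given here for that fit. The median difference was then -0.07 for the 38 genes and 0.13 for all tested genes, and WDR35 stood at 0.92. Without control 1, 11 genes were called higher, against 19.1% of all tested genes, and 3 lower, against 13.2%.

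With all libraries, more of these genes passed the test between the lines than between conditions. In starved cells, 5 of 38 genes were higher in BxPC-3 than in CFPAC-1, against 21.4% of all tested genes, and 4 were lower, against 14.8%. The shares of these genes were thus not above those of all tested genes, and the median difference was 0.08 against 0.12. Higher in BxPC-3 were IFT57, IFT52, IFT74, HSPB11 and ARL6, of which all but ARL6 encode IFT-B proteins. ARL6 reached 1 FPKM only in BxPC-3 induced and CFPAC-1 control 3, and IFT74 only in BxPC-3 and CFPAC-1 control 2 and 3, so neither passed the filter through CFPAC-1 induced. Lower in BxPC-3 were IFT27, IFT140, KIFAP3 and MKKS. This comparison uses the CFPAC-1 control libraries only in the shared estimate of spread. Without controls 2 and 3 it called 7 higher, against 25.7%, adding BBS5 and LZTFL1, and 4 lower, against 18.3%. With controls 2 and 3 kept, the count changed with the libraries used. In all, 4 genes were called without CFPAC-1 induced 3, and 5 without either BxPC-3 induced 2 or induced 3. With libraries 2 and 3 of each group averaged as 1, IFT27 alone was called, at a limma adjusted p of 0.0417. Shares over all tested genes are not given for these fits, and fewer libraries mean less power for every gene.

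**Figure D4:**
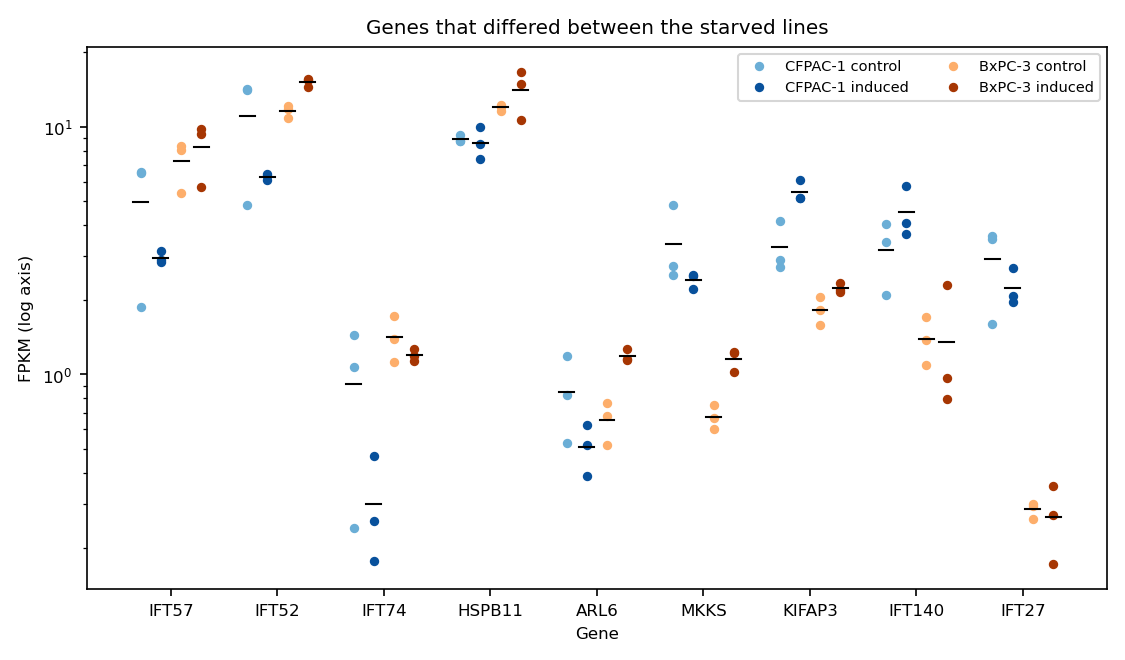
FPKM on a log axis of the 9 genes that differed between starved BxPC-3 and starved CFPAC-1 cells; each point is 1 library and each black bar the mean of 3. IFT27 shows the widest gap, with CFPAC-1 libraries at 1.6 to 3.62 and BxPC-3 libraries at 0.171 to 0.355 FPKM, and CFPAC-1 control points of IFT52 and IFT57 fall into a low and a high level.

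IFT27, a Rab-like GTPase of the IFT-B1 core that is known to link IFT to BBSome exit, showed the widest gap. It was at 1.6, 3.54 and 3.62 FPKM in CFPAC-1 control, 2.69, 2.08 and 1.96 in CFPAC-1 induced, 0.261, 0.300 and 0.294 in BxPC-3 control, and 0.355, 0.171 and 0.271 in BxPC-3 induced. All CFPAC-1 libraries were above all BxPC-3 libraries, and the gene passed the filter through CFPAC-1 alone. In starved cells the log2 difference was -1.35 (SE 0.22, limma adjusted p = 0.000735), and the ratio of mean FPKM was 8.45-fold. The log2(FPKM + 1) scale understates such a ratio at low levels. IFT27 lies at chr22:36758202-36776256 on GRCh38, and none of its exon bases is shared with another annotated gene.

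HSPB11, the partner with which IFT27 forms a dimer inside IFT-B1, went the other way. It was outside the rule for named genes and is added for this pairing, seen in the values. HSPB11 was at 8.80, 9.28 and 8.78 FPKM in CFPAC-1 control, 7.41, 9.98 and 8.5 in CFPAC-1 induced, 11.6, 12.0 and 12.3 in BxPC-3 control, and 10.7, 16.7 and 14.9 in BxPC-3 induced. Every BxPC-3 library was above every CFPAC-1 library, and in starved cells the log2 difference was 0.64 (SE 0.18, limma adjusted p = 0.0179). The ratio of HSPB11 to IFT27 in FPKM was 2.42 to 5.5 in the CFPAC-1 libraries and 30.2 to 97.2 in the BxPC-3 libraries. Within CFPAC-1 the lowest 2 ratios were those of controls 2 and 3.

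The other IFT-B genes higher in BxPC-3 were IFT52, IFT57 and IFT74. IFT52, a scaffold protein of the IFT-B1 core, was at 6.44, 6.30 and 6.09 FPKM in CFPAC-1 induced and 14.5, 15.6 and 15.5 in BxPC-3 induced. These groups were far apart, with a log2 difference of 1.15 (SE 0.30, limma adjusted p = 0.0125). In control cells IFT52 was at 4.82, 14.2 and 14.1 FPKM in CFPAC-1 and 10.9, 11.8 and 12.1 in BxPC-3, so the order of the lines depended on the CFPAC-1 library. IFT57, which lies in peripheral IFT-B2, was at 3.15, 2.85 and 2.89 FPKM in CFPAC-1 induced and 5.69, 9.84 and 9.36 in BxPC-3 induced. Its log2 difference was 1.20 (SE 0.35, limma adjusted p = 0.0202). In control cells it was at 1.87, 6.55 and 6.52 FPKM in CFPAC-1 and 5.40, 8.06 and 8.36 in BxPC-3, which overlapped. IFT74, which with IFT81 forms the tubulin-binding module, was at 0.257, 0.469 and 0.177 FPKM in CFPAC-1 induced and 1.27, 1.19 and 1.13 in BxPC-3 induced. The log2 difference was 0.76 (SE 0.23, limma adjusted p = 0.0251), while its partner IFT81 stood at -0.33 (SE 0.18, adjusted p = 0.173).

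Besides IFT27, the genes lower in starved BxPC-3 than in starved CFPAC-1 came from IFT-A, kinesin-2 and the chaperonin-like group. IFT140, an IFT-A core protein, was at 2.09, 3.42 and 4.04 FPKM in CFPAC-1 control, 5.79, 4.08 and 3.69 in CFPAC-1 induced, 1.71, 1.09 and 1.38 in BxPC-3 control, and 2.30, 0.793 and 0.967 in BxPC-3 induced. The lines did not overlap in either condition, and in starved cells the log2 difference was -1.26 (SE 0.27, limma adjusted p = 0.00403). KIFAP3, with its CFPAC-1 values given above, had 1.82, 1.59 and 2.05 FPKM in control and 2.35, 2.19 and 2.16 in induced cells of BxPC-3, below every CFPAC-1 library. Its log2 difference in starved cells was -1.0 (SE 0.17, limma adjusted p = 0.000968). The motor subunits that it joins did not follow: KIF3B stood at 0.56 (SE 0.27, adjusted p = 0.127) and KIF3A at 0.32 (SE 0.28, adjusted p = 0.403). MKKS was at 2.22, 2.5 and 2.52 FPKM in CFPAC-1 induced and 1.02, 1.22 and 1.23 in BxPC-3 induced, without overlap. Its log2 difference was -0.66 (SE 0.19, limma adjusted p = 0.0198). Of its annotated exon bases, 12.7% overlap other genes on the same strand.

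In normal culture, IFT27, MKKS, WDR35 and KIFAP3 were lower in BxPC-3 than in CFPAC-1. That is 4 of 38 genes, against 13.1% of all tested genes, and 0 were higher, also against 13.1%. At an unadjusted p under 0.05, 12 of 38 genes passed, against 38.3% of all tested genes. MKKS was at 4.82, 2.74 and 2.51 FPKM in CFPAC-1 control and 0.600, 0.755 and 0.666 in BxPC-3 control, and its log2 difference was -1.34 (SE 0.19, limma adjusted p = 0.000396), or -1.8 (adjusted p = 0.000119) without controls 2 and 3. IFT27 stood at -1.56 (SE 0.22, limma adjusted p = 0.000328), or -1.02 (adjusted p = 0.00559) without controls 2 and 3. WDR35 stood at -0.78 (SE 0.22, adjusted p = 0.024) and KIFAP3 at -0.59 (SE 0.17, adjusted p = 0.0242), the latter at -0.88 (adjusted p = 0.0099) without controls 2 and 3. Without CFPAC-1 control 2 and 3, IFT57, IFT52, IFT74, BBS5 and LZTFL1 were called higher, which is 5 of 38 against 13.8%, and IFT27, KIFAP3 and MKKS lower, which is 3 of 38 against 13.7%. WDR35 was then at -0.59 (adjusted p = 0.201). The median difference moved from -0.09 to 0.12, with all tested genes at -0.07 and -0.04. Without control 1 the split turned to 1 higher, against 17.4%, and 11 lower, against 20.0%, so which direction was called depended on the CFPAC-1 control libraries used.

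The leading genes of the remaining groups passed no test between conditions with all libraries. IFT43, the highest IFT-A gene, was at 1.68, 3.59 and 3.45 FPKM in CFPAC-1 control, 3.53, 3.04 and 2.40 in CFPAC-1 induced, 2.86, 3.20 and 3.49 in BxPC-3 control, and 2.54, 3.78 and 3.74 in BxPC-3 induced. All 4 groups overlapped. Its log2 change was 0.05 in BxPC-3 and 0.06 in CFPAC-1, the latter 0.56 (SE 0.25, limma adjusted p = 0.28) without controls 2 and 3. BBS4, the highest BBSome gene, was at 1.86, 2.44 and 1.53 FPKM in CFPAC-1 control, 2.45, 1.21 and 1.56 in CFPAC-1 induced, 2.02, 2.27 and 2.5 in BxPC-3 control, and 2.19, 1.62 and 2.08 in BxPC-3 induced. BBS10, the highest chaperonin-like gene, was at 2.05, 1.73 and 1.78 FPKM in CFPAC-1 control and 4.03, 2.23 and 2.12 in CFPAC-1 induced, which did not overlap, with a log2 change of 0.37 (SE 0.23, limma adjusted p = 0.261) and of 0.28 (adjusted p = 0.74) without controls 2 and 3. In BxPC-3 it was at 2.11, 1.29 and 1.55 FPKM in control and 3.04, 1.63 and 2.44 in induced cells, with a log2 change of 0.34 (SE 0.23, limma adjusted p = 0.765). LZTFL1 was at 0.381, 1.72 and 2.24 FPKM in CFPAC-1 control, 1.12, 0.842 and 0.791 in CFPAC-1 induced, 1.01, 1.42 and 1.43 in BxPC-3 control, and 1.74, 1.56 and 1.53 in BxPC-3 induced. Its change in CFPAC-1 was -0.27 (limma adjusted p = 0.502) with all libraries, 0.47 (adjusted p = 0.281) without controls 2 and 3 and -0.63 (adjusted p = 0.0083) without control 1. Of the BBSome genes, 6 of 8 were tested and 0 were called in any comparison with all libraries. Over all tested genes, 0.334% were called between conditions in BxPC-3. Between starved lines, 21.4% were higher and 14.8% lower. With 6 genes, a count of 0 does not set the BBSome apart from other genes.

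By group, the medians of the changes in BxPC-3 were 0.02 for IFT-A, 0.01 for the IFT-B1 core, 0.11 for peripheral IFT-B2 and -0.05 for the BBSome. All 6 peripheral IFT-B2 genes were above 0 there, from 0.02 for TRAF3IP1 to 0.17 for IFT20, and none passed the test. In CFPAC-1 with all libraries the medians were -0.09, -0.13, -0.20 and 0.04 in the same order. Without controls 2 and 3 they were 0.28, 0.13, 0.07 and 0.16. The smaller groups had 2 or 3 tested genes each. Their medians in BxPC-3 were 0.16 for kinesins, 0.34 for dynein-2, 0.35 for chaperonin-like genes and 0.30 for recruitment and regulation. Those in CFPAC-1 with all libraries were -0.74, -0.29, 0.03 and -0.27 in that order. They were -0.29, 0.38, -0.25 and 0.23 without controls 2 and 3.

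Genes listed as partners or regulators of this machinery were examined as 5 further lists, and their part in cilia was not tested here. None of their tested genes was called in BxPC-3 between induced and control cells. Of the dynein light chains shared with cytoplasmic dynein, 6 of 7 were tested and the highest were DYNLL1 at 75.2 and DYNLRB1 at 39.7 FPKM in mean. These are also subunits of the abundant cytoplasmic motor. Of the kinases that regulate IFT, 2 of 4 were tested, MOK at 1.36 and ICK at 0.881 FPKM. Of the list of RFX factors and FOXJ1, 4 of 7 were tested, with the highest levels for RFX5 at 7.70 and RFX1 at 4.05 FPKM. The others were lower, with RFX7 at 1.4, RFX2 at 1.3 and RFX3, not tested, at 0.23 FPKM in mean. RFX4 was listed at 0 in every library, and FOXJ1, the regulator of motile cilia, was at 2.31 and 1.74 FPKM in CFPAC-1 control 2 and 3 and at most 0.727 elsewhere. None of the tested genes of these 3 lists was called in CFPAC-1 either. Of the ciliary cargo adaptors, led by UNC119B at 10.3 and RAB8A at 8.81 FPKM, 12 of 14 were tested. In CFPAC-1 0 were higher, against 7.85% of all tested genes, and 1 was lower, against 8.77%. The latter was RAB23, at -0.82 (limma adjusted p = 0.0345), and it stood at -0.39 (adjusted p = 0.511) without controls 2 and 3.

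The CCT chaperonin, which folds tubulin and other proteins and takes part with the chaperonin-like BBS proteins in BBSome assembly, was by far the most abundant of these lists, with CCT4 at 120 and CCT7 at 102 FPKM. In CFPAC-1, 4 of its 8 genes fell (TCP1, CCT2, CCT3 and CCT5), against 8.77% of all tested genes, with a list median of -0.73. Without controls 2 and 3, 0 of 8 were called and the median was -0.36. CCT5 then stood at -0.85 (from -0.94) and CCT3 at -0.64 (from -0.75), while TCP1 stood at -0.20 (from -1.07) and CCT2 at -0.55 (from -1.17). In BxPC-3 all 8 changes were above 0, with a median of 0.28, and none passed the test. The changes of CCT5 differed between the lines by 1.33 (limma adjusted p = 0.0446), and by 1.25 (adjusted p = 0.165) without controls 2 and 3.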

How the data were processed

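The authors deposited a table of log2(FPKM + 1) values for 60564 genes in 12 libraries, 3 for each of 4 groups, and groups were taken from the labels. StringTie, FastQC and GRCh38 are named per the submitters' processing notes. No aligner, strand setting or annotation release is given in the sources used here. Counts are not used here. The commonest low values put depth at about 17.0 to 26.9 fragments per kilobase at 1 FPKM, an estimate only.

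limma 3.58.1 in R 4.3.3 fitted 4 group means to the deposited log2 values of 12860 genes at 1 FPKM or more in at least 3 libraries, two-sided, with Benjamini-Hochberg adjustment over all of them and a threshold of 0.05. The fit was tested on simulated data. Linear FPKM were recovered as 2 to the power of the value minus the pseudocount of 1. The members and all lists were chosen with earlier results of these data known. Named genes were: genes past the threshold in BxPC-3, in the difference of the changes, or in CFPAC-1 with and without controls 2 and 3; the highest gene of each role; the 6 largest differences past the threshold between starved lines; the 3 largest changes each way in each line; TTC30A and TTC30B; and untested genes. HSPB11, MKKS and others outside this rule were named after their values were seen. Of all identifiers, 96.5% were in GENCODE release 29, which gave exon overlaps. Alternatives were leaving out libraries, fitting each line alone, averaging libraries 2 and 3, a replicate block, another pseudocount, filter or scaling, and limma's trend with robust estimation.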

Additional observations from a re-analysis of the deposited data

How the results depend on the processing

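In BxPC-3 no alternative called any gene between induced and control cells, and the median ranged from -0.01 to 0.09 when a library was left out. In CFPAC-1 the count of 3 became 0 without controls 2 and 3, 0 with each line fitted alone, 0 with libraries 2 and 3 averaged, 1 without a filter, 1 at a mean FPKM of at least 5 and 5 with quantile normalization. Leaving out 1 library gave 0 to 17: 17 without control 1, and 0 without control 2, control 3, induced 2 or induced 3. The CFPAC-1 median of -0.13 was 0.13 without controls 2 and 3 and -0.49 at a mean FPKM of at least 5, where 5 genes remained. For the difference of the changes, leaving out a library gave 0 to 14 calls, 14 without CFPAC-1 control 1 and 1 without CFPAC-1 induced 1. Its median of 0.16 was -0.07 without controls 2 and 3 and 0.83 at a mean FPKM of at least 5. Between starved lines the count of 9 was 1 with libraries 2 and 3 averaged and 3 at a mean FPKM of at least 5, and 4 to 12 with a library left out; the median of 0.08 was 0.64 at that level. Between control lines the count of 4 was 8 without CFPAC-1 control 2 and 3, 2 with libraries averaged, 0 at a mean FPKM of at least 5 and 2 to 12 with a library left out, 12 without CFPAC-1 control 1 and 2 without BxPC-3 control 2. Its median of -0.09 was 0.12 without controls 2 and 3, 0.20 at the higher level and -0.27 to -0.04 with a library left out. Fewer genes or samples entered several of these fits, and otherwise the cause was not tested. With quantile normalization, 2121 of 12860 tested genes were called in CFPAC-1, against 2138 in the main fit. Shares over all tested genes are not given here for most alternatives. The counts therefore describe how stable the calls were and do not set these genes apart from others.

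With a replicate block the calls were 2 in CFPAC-1, 0 in BxPC-3, 0 for the difference, 2 between starved lines (KIFAP3 and IFT52) and 1 between control lines (MKKS). In CFPAC-1 the block kept KIFAP3, lost KIF3B (limma adjusted p = 0.0607) and TRAF3IP1 (0.0565) and added WDR60 (0.029). Over all alternatives the CFPAC-1 call of KIFAP3 held in 9 of 21, that of KIF3B in 13 of 22 and that of TRAF3IP1 in 12 of 21. Rescaling without mitochondrially encoded genes was among those that ended the KIFAP3 call, at 0.51 (limma adjusted p = 0.0765). With the block, at number 1 between starved lines, IFT27 (limma adjusted p = 0.0578) and IFT140 (0.144) were not called, among others. Same-numbered libraries did not deviate together in CFPAC-1 (r of -0.062, -0.020 and -0.080). They did so weakly in BxPC-3 (0.151, 0.110 and 0.0536), where control 2 correlated best with induced 3 (0.152). The numbers were therefore not taken to pair single samples. In BxPC-3, r between number 1 of one group and numbers 2 and 3 of the other was -0.165 to -0.0767. The part of number 1 against numbers 2 and 3 in the results was not tested. Rescaling without mitochondrially encoded genes moved the CFPAC-1 split over all tested genes from 1010 higher of 2138 called to 774 of 2539. Quantile normalization moved the difference of the changes from 172 higher of 315 to 88 of 255 and its median over all tested genes from 0.16 to 0.03. The median of these genes moved with it, from 0.16 to 0.06. Between starved lines IFT27 was called in 19 of 20 alternatives (limma adjusted p 1.32e-05 to 0.0578) and KIFAP3 in 19 of 20 (9.56e-05 to 0.0632). IFT52 was called there in 20 of 21 and IFT74 in 12 of 20, and MKKS between control lines in 20 of 20. These tallies include the replicate block, whose contrast between lines is that at number 1. No difference called with all libraries changed its direction in an alternative. LZTFL1 between control lines, not called with all libraries, stood at -0.01 there and at 0.72 without CFPAC-1 control 2 and 3.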
